A study of Homo sapiens with 4 samples.

Results

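Axon guidance ligands and receptors were examined in SK-N-SH cells, an established human neuroblastoma line, with and without overexpression of the lncRNA *RP5-998N21.4*. The genes were taken by symbol from the deposited transcript counts: semaphorins of classes 3 to 7, plexins, neuropilins, ephrins, EPH receptors, SLIT and ROBO genes, netrins, *DCC* and UNC5 receptors. The rule found 70 gene IDs under 69 symbols, of 57820 genes in the table. *EFNA3* has 2 IDs because the table gives its symbol to the EFNA4-EFNA3 readthrough gene too. They hold 596 listed transcripts, 179 of them with a count.

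RNA-seq had been performed on 4 libraries. In vector control (n = 2), SK-N-SH cells received the lentivirus vector with no insert, although the titles of these libraries read WT. In *RP5-998N21.4* OE (n = 2), the lentivirus carried *RP5-998N21.4* behind the EF1a promoter of the same PHAGE-fullEF1a-MCS-IZS Green vector. The labels do not say whether the libraries of a condition came from separate cultures, so the p-values measure only the spread between these libraries, which may be technical. Library totals were 23785164 and 24098041 counts in vector control and 24601728 and 28307591 counts in OE. The guidance genes took 0.4215% to 0.4424% of a library. The targeted gene *RP5-998N21.4* had 1.37 and 1.40 CPM in vector control and 95.9 and 97.1 CPM in OE, a log2 fold change of 6.11 ± 0.108 (standard error, edgeR adjusted p = 0.0109), and the conditions lay far apart. CPM values here are counts scaled to a common library size after TMM normalization, and every log2 fold change is OE minus vector control.

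Axon guidance genes encode secreted or membrane-bound cues and the receptors that read them on a growing axon or a migrating cell. Semaphorins act through plexins, with neuropilins as co-receptors for the secreted class 3. Ephrins and EPH receptors signal on cell contact, in both directions. SLIT proteins bind ROBO receptors, and netrins bind DCC, which attracts, and the UNC5 receptors, which repel. UNC5 receptors and DCC are also known as dependence receptors, which can trigger cell death when no ligand is bound. Neuroblastoma arises from the sympathetic lineage of the neural crest, whose migration is guided by several of these cues.

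Expression of most of the families was found. Of the 70 genes, 66 had a count in some library and 60 passed edgeR's filter on low counts, among 20528 tested genes. The 10 untested genes, *DCC*, *EPHA3*, *EPHA4*, *EPHA5*, *EPHA7*, *EPHB6*, *NTN4*, *SEMA3E*, *SLIT1* and the EFNA4-EFNA3 readthrough, had at most 9 counts in a library. *EPHA3*, *EPHA5*, *EPHA7* and the readthrough were at 0 in all 4 libraries, where 3 counts, the limit that a 0 allows, would equal 0.106 to 0.126 CPM. Intervals and limits of this kind cover counting error only. Since these are bulk libraries, fewer cells of a type and less RNA per cell cannot be told apart.

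The thresholds of the study were an adjusted p under 0.01 with an absolute log2 fold change above 0.5. At these, edgeR called 0 of the 60 guidance genes, and 0.0% of all tested genes. The targeted gene, with an edgeR adjusted p of 0.0109, was not called either, so this count does not set the guidance genes apart. At an adjusted p under 0.05 and the same fold change, *UNC5B* alone was called, as higher in OE, against 0.283% of all genes in that direction, and 0 guidance genes were called as lower, against 0.312%. An unadjusted p under 0.05 was found for 23 of the 60 guidance genes (38.3%), against 20.8% of all tested genes. Of these, 9 were higher in OE (15.0%, against 10.1% of all genes) and 14 were lower (23.3%, against 10.7%). DESeq2, the tool named in the methods of the study, called 7 guidance genes higher (11.7%, against 4.35% of all genes) and 7 lower (11.7%, against 4.42%), all 14 among the 23. The median log2 fold change was -0.06 over the guidance genes and 0.01 over all tested genes.

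The 2 conditions were fully separated, with OE on the higher side, for 21 guidance genes (35.0%, against 27.8% of all tested genes). OE was on the lower side for 25 (41.7%, against 27.6%). A permutation test of 2 libraries against 2 cannot go below an exact two-sided p of 0.333, so no such test is given for single genes. With each library left out in turn, 13 of the 23 genes kept an unadjusted p under 0.05 in all 4 fits, 21.7% of the 60 tested against 8.30% of all tested genes: *EFNA3*, *EPHA8*, *EPHB1*, *NRP2*, *PLXNA2*, *SEMA3D*, *SEMA3F*, *SEMA4C*, *SEMA6B*, *SEMA6D*, *SLIT3*, *UNC5A* and *UNC5B*.

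**Figure D1:**
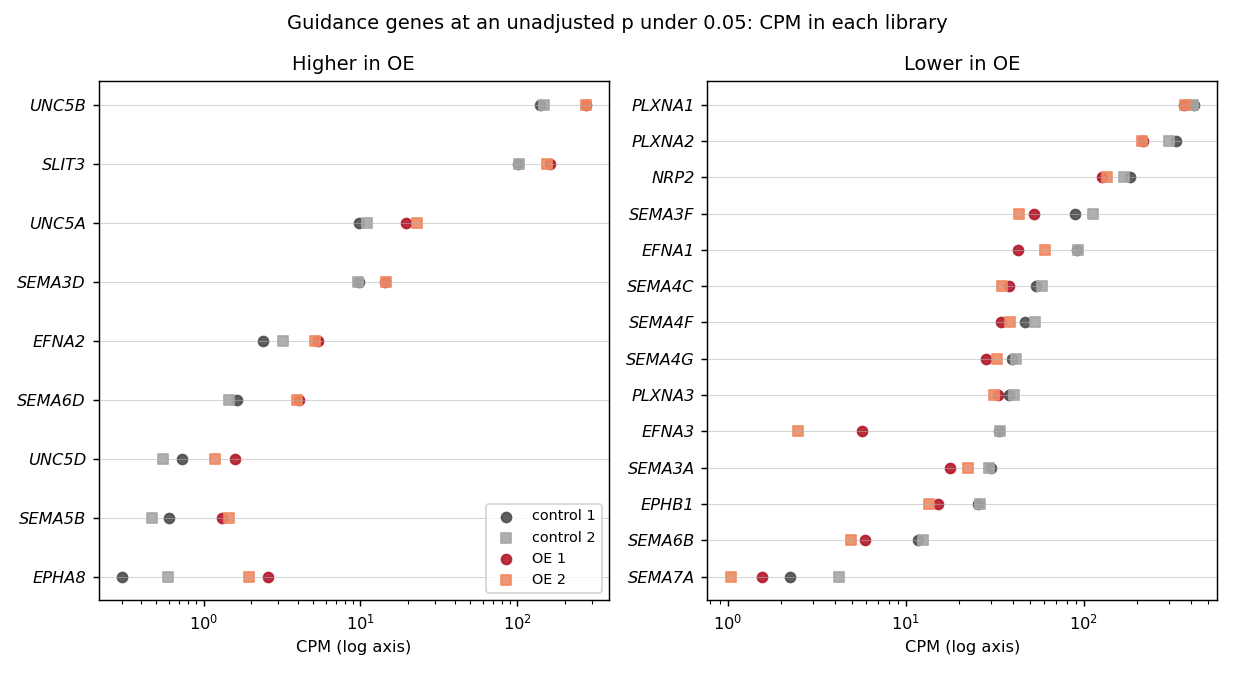
CPM (log axis) of the 23 guidance genes with an unadjusted p under 0.05, with 1 point per library, in grey for vector control and red for OE, and genes ordered by their vector control mean. The 9 genes on the left had both OE points above both control points, and the 14 on the right had them below, with *EFNA3* the widest apart.

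**Figure D2:**
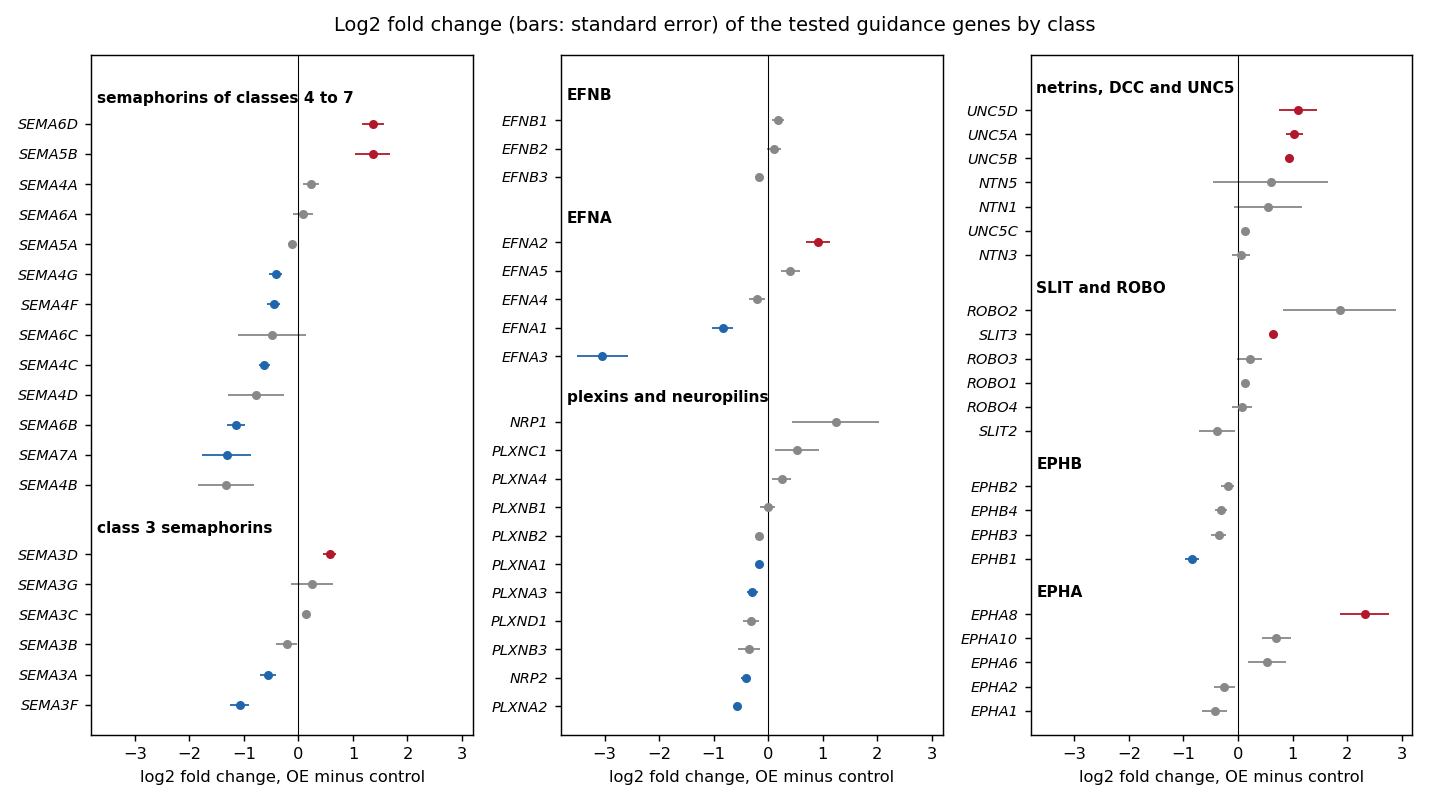
Log2 fold change, OE minus vector control, of the 60 tested guidance genes by class, with the standard error of edgeR as bars. Red and blue mark genes higher and lower at an unadjusted p under 0.05, and all 7 tested genes of the netrin, DCC and UNC5 class lie right of 0, although *NTN1* and *NTN5* had negative values in a fit without 1 library.

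The netrin receptors held the clearest difference. *UNC5B*, a repulsive netrin receptor, had 139 and 147 CPM in vector control and 272 and 272 CPM in OE. The OE libraries were nearly alike and both far above the control libraries. The mean went from 143 ± 5.40 to 272 ± 0.0568 CPM (SD, n = 2 each), a log2 fold change of 0.93 ± 0.0654 (standard error, edgeR adjusted p = 0.0445), from 0.89 to 0.96 when a library was left out. In those fits the edgeR adjusted p was 0.108 to 0.123, so the call at 0.05 was lost without any 1 of the 4 libraries. All its counts were on ENST00000335350.6, 1 of 2 listed transcripts. *UNC5B* lies on the plus strand at chr10:72972327-73062621 (hg19).

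*UNC5A*, its close relative, had 9.75 and 11.1 CPM in vector control and 19.6 and 23.1 CPM in OE, again without overlap, and a log2 fold change of 1.03 ± 0.156 (edgeR adjusted p = 0.0911). It lies at chr5:176237520-176307899 (hg19, plus strand), and exons of *HK3* on the opposite strand overlap it, with 0 to 36 counts per library. *UNC5D* was rare, with 17 and 13 counts in vector control and 40 and 34 counts in OE and a log2 fold change of 1.10 ± 0.357 (edgeR adjusted p = 0.217). That unadjusted p was above 0.05 in each of the 4 fits without 1 library, in which the log2 fold change was 0.87 to 1.31. *UNC5C*, the remaining UNC5 receptor, had 143 and 136 CPM in vector control and 153 and 153 CPM in OE, and its log2 fold change was 0.14 ± 0.0707 (edgeR adjusted p = 0.371).

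So 3 of the 4 UNC5 receptors were among the genes higher at an unadjusted p under 0.05. Their netrin ligands were scarce. *NTN1*, the founding vertebrate netrin, had 8 and 24 counts in vector control and 28 and 26 counts in OE, and *NTN3* had 87 and 89 counts in vector control and 96 and 116 counts in OE. *NTN5* had 4 to 25 counts per library and *NTN4* at most 5. The log2 fold changes of *NTN1*, *NTN3* and *NTN5* were 0.55, 0.06 and 0.60, with edgeR adjusted p from 0.667 to 0.872. With a library left out, *NTN1* ranged from -0.03 without vector control replicate 1 to 1.53 without vector control replicate 2. *NTN5* ranged from -1.07 without OE replicate 2 to 1.57 without vector control replicate 2, so the direction of neither gene was stable. *DCC*, an attractive netrin receptor, had 0 and 6 counts in vector control and 4 and 6 counts in OE. Receptors outside the symbol rule are not counted here, such as *NEO1*, at 136 to 144 CPM per library. Of the 9 genes of the class, 7 were tested and 3 were higher at an unadjusted p under 0.05, against 10.1% of all tested genes. The class median of 0.60 is the value of *NTN5* itself and is as uncertain as that gene.

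Among the repulsive SLIT ligands, *SLIT3* was higher in OE. It had 101 and 102 CPM in vector control and 162 and 155 CPM in OE, with each condition within a narrow range and no overlap. The log2 fold change was 0.64 ± 0.0715 (edgeR adjusted p = 0.0703), from 0.61 to 0.67 with a library left out. *SLIT3* lies on the minus strand at chr5:168088745-168728143 (hg19), where ENSG00000254192 on the opposite strand shares exon bases. That gene had 96 and 92 counts in vector control and 153 and 138 counts in OE, so it was higher in both OE libraries too.

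*UNC5A* and *SLIT3* are the receptor and the ligand of the higher group that lie on chromosome 5. Their promoters are shown because both genes were higher in OE, from 250 bases before to 50 after the transcription start (RefSeq, GRCh38.p14). Capitals mark a GC box (GGGCGG) or a CCAAT box (CCAAT) on either strand. *UNC5A* is at chr5:176810309-176810608 on the plus strand and *SLIT3* at chr5:169301090-169301389 on the minus strand.
UNC5A: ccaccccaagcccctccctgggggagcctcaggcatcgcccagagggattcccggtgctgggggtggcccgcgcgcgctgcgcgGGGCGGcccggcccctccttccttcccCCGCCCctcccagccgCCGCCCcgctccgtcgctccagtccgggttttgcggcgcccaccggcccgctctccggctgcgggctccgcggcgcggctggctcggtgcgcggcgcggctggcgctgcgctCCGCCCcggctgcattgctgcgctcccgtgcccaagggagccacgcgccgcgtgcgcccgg
SLIT3: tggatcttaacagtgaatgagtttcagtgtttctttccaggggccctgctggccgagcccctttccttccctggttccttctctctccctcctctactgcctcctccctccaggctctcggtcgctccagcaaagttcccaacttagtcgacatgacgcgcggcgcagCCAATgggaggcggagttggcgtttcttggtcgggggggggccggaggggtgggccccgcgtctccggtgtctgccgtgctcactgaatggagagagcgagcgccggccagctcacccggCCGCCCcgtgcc
The *UNC5A* window had a GC content of 80.7% and 4 GC boxes, and the *SLIT3* window 64.7%, 1 GC box and 1 CCAAT box.

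*SLIT2*, the most abundant SLIT and the leader of its class per length, differed between the OE libraries. It had 214 and 212 CPM in vector control and 212 and 113 CPM in OE. OE replicate 1 lay at the control level and OE replicate 2 well below, so the conditions overlapped, and the log2 fold change was -0.39 ± 0.333 (edgeR adjusted p = 0.570), from -0.91 to -0.01 with a library left out. The counts were shared by a pair of transcripts in 3 libraries. ENST00000504154.1 had 2557 and 3025 counts in vector control, 2833 in OE replicate 1 and 0 in OE replicate 2. ENST00000503823.1 had 2373, 1932, 2476 and 3243 counts in the same order. In OE replicate 2 the gene sum was thus low while this transcript was at its highest, and by the transcript of highest mean count the log2 fold change turned to 0.19.

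These transcripts are 8053 and 5233 bases long and differ, among other places, in a coding exon of 24 bases (8 codons) at chr4:20526772-20526795 (hg19, plus strand), exon 15 of 37 in ENST00000504154. It is printed with the 30 bases on each side in the spliced transcript, which belong to the neighbouring exons. The capitals are the exon that ENST00000503823 lacks.
SLIT2 with the exon: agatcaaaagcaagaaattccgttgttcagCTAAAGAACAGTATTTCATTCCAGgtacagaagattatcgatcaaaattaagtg
SLIT2 without the exon: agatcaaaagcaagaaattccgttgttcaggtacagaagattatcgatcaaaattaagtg

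*SLIT1* had at most 9 counts in a library. Among the receptors, *ROBO1*, a repulsive SLIT receptor, had 138 and 133 CPM in vector control and 146 and 149 CPM in OE, and its log2 fold change was 0.13 ± 0.0691 (edgeR adjusted p = 0.394). *ROBO2* had 2 and 24 counts in vector control and 64 and 44 counts in OE. Its control libraries were over 4-fold apart, so its log2 fold change of 1.86 ± 1.04 (edgeR adjusted p = 0.397) ranged over 0.99 to 4.48 with a library left out, the highest without vector control replicate 2. *ROBO3* and *ROBO4* had log2 fold changes of 0.21 and 0.08, with overlapping conditions, and of -0.04 and -0.08 without OE replicate 2. Of the class, 6 of 7 genes were tested, *SLIT3* alone had an unadjusted p under 0.05, which is near the 20.8% of all tested genes, and the median log2 fold change was 0.17.

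Of the 6 secreted class 3 semaphorins tested, 1 was higher and 2 were lower at an unadjusted p under 0.05, against 10.1% and 10.7% of all tested genes. The 1 higher was near that share. *SEMA3F*, a ligand of neuropilin 2, had 89.5 and 112 CPM in vector control and 52.5 and 43.1 CPM in OE. Both OE libraries were well below both control libraries. The log2 fold change was -1.08 ± 0.179 (edgeR adjusted p = 0.0991). It lies at chr3:50192478-50226508 (hg19, plus strand), and its antisense gene *SEMA3F-AS1* had 83 to 120 counts per library. *SEMA3A*, the collapsing cue that binds neuropilin 1, had 30.1 and 29.2 CPM in vector control and 17.8 and 22.4 CPM in OE, and a log2 fold change of -0.56 ± 0.155 (edgeR adjusted p = 0.181). Its unadjusted p was above 0.05 without vector control replicate 1 or 2 or OE replicate 1, with log2 fold changes of -0.54, -0.58 and -0.40.

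*SEMA3D* was higher in OE, with 9.75 and 9.66 CPM in vector control and 14.3 and 14.5 CPM in OE. The libraries of each condition were nearly equal, and the log2 fold change was 0.57 ± 0.117 (edgeR adjusted p = 0.126). *SEMA3C*, a ligand with a known role in neural crest migration, was the most abundant per length of the 5 class members that could be ordered, with 481 and 436 CPM in vector control and 499 and 509 CPM in OE, and its log2 fold change was 0.14 ± 0.0698 (edgeR adjusted p = 0.365). *SEMA3B* and *SEMA3G* overlapped between conditions, with log2 fold changes of -0.21 and 0.25, the latter -0.10 without vector control replicate 2. That of *SEMA3B* was -1.12 by the transcript of highest mean count, which had 0 counts in OE replicate 1. The summed CPM of the class was 619.5 and 595 in vector control and 590.5 and 598 in OE, so that the sums overlapped between conditions.

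Of the 13 semaphorins of classes 4 to 7, which are mostly anchored in the membrane, 5 were lower and 2 higher at an unadjusted p under 0.05, against 10.7% and 10.1% of all tested genes, and the median log2 fold change was -0.46. *SEMA4C*, a ligand of plexin B2, had 54.0 and 58.1 CPM in vector control and 37.9 and 34.7 CPM in OE and a log2 fold change of -0.63 ± 0.104 (edgeR adjusted p = 0.0999). *SEMA6B* had 11.7 and 12.4 CPM in vector control and 5.94 and 4.94 CPM in OE and a log2 fold change of -1.15 ± 0.164 (edgeR adjusted p = 0.0860). Both genes had their OE libraries close together and below the control libraries. The transcripts of *SEMA4C* differed between conditions. ENST00000305476.5 had 199 and 226 counts in vector control and 8 and 6 in OE, and ENST00000482925.1 had 0 and 0 against 266 and 314. By the transcript of highest mean count, the log2 fold change of *SEMA4C* was -1.04. For *SEMA6B*, all 272 counts of vector control replicate 1 were on ENST00000301293.3 and those of the other 3 libraries on ENST00000586582.1, so by the transcript of highest mean count the log2 fold change was -0.19.

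*SEMA4F* and *SEMA4G* were lower by less. *SEMA4F* had 46.8 and 52.9 CPM in vector control and 34.4 and 38.3 CPM in OE, a log2 fold change of -0.46 ± 0.120 (edgeR adjusted p = 0.170). *SEMA4G* had 39.3 and 41.7 CPM in vector control and 28.2 and 32.5 CPM in OE, a log2 fold change of -0.42 ± 0.119 (edgeR adjusted p = 0.188). Neither gene overlapped between conditions. The unadjusted p of *SEMA4F* was above 0.05 without vector control replicate 2 (log2 fold change -0.37) or OE replicate 1 (-0.38). That of *SEMA4G* was above it without vector control replicate 1 (-0.46) or 2 (-0.38) or OE replicate 1 (-0.32). *MRPL43*, on the strand opposite *SEMA4G*, had 1066 to 1338 counts.

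*SEMA7A*, a GPI-anchored semaphorin that acts through plexin C1 and integrins, had 52 and 99 counts in vector control and 39 and 30 counts in OE and a log2 fold change of -1.32 ± 0.447 (edgeR adjusted p = 0.231). Its unadjusted p was above 0.05 without vector control replicate 2 (log2 fold change -0.79), OE replicate 1 (-1.63) or OE replicate 2 (-1.05). The higher pair were both rare. *SEMA6D* had 38 and 34 counts in vector control and 101 and 114 counts in OE, with a log2 fold change of 1.37 ± 0.194 (edgeR adjusted p = 0.0842). Of these, 38 and 104 counts of vector control replicate 1 and OE replicate 2 were on ENST00000558816.1, and 29 and 93 counts of vector control replicate 2 and OE replicate 1 on ENST00000316364.5. By the transcript of highest mean count, the log2 fold change was 1.14 with an edgeR adjusted p of 0.912. *SEMA5B* had 14 and 11 counts in vector control and 33 and 42 counts in OE and a log2 fold change of 1.36 ± 0.321 (edgeR adjusted p = 0.148). Both had their OE libraries above the control libraries. The unadjusted p of *SEMA5B* was above 0.05 without vector control replicate 2 (log2 fold change 1.19), OE replicate 1 (1.43) or OE replicate 2 (1.29). *SEMA5A*, the most abundant per length of these semaphorins apart from *SEMA4B* and *SEMA6B*, which were not ordered, had 320.5 and 294 CPM in vector control and 275 and 293 CPM in OE, and its log2 fold change was -0.11 ± 0.0772 (edgeR adjusted p = 0.473).

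Among the plexins and neuropilins, the receptors of the semaphorins, 4 of 11 genes were lower in OE at an unadjusted p under 0.05, against 10.7% of all tested genes, and *PLXNA1* and *PLXNA3* among them lost that p in every fit without 1 library. *PLXNA2*, a receptor of class 3 and class 6 semaphorins, had 330.3 and 302 CPM in vector control and 213 and 211 CPM in OE. The OE libraries were nearly equal and below both control libraries, with a log2 fold change of -0.57 ± 0.0721 (edgeR adjusted p = 0.0768). *NRP2*, the co-receptor for SEMA3F, had 182 and 167 CPM in vector control and 126 and 135 CPM in OE and a log2 fold change of -0.42 ± 0.0853 (edgeR adjusted p = 0.125). *SEMA3F* and its co-receptor *NRP2* were thus both lower in OE.

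*PLXNA1* and *PLXNA3* showed small differences. *PLXNA1* had 417 and 412 CPM in vector control and 366 and 368 CPM in OE, without overlap, and a log2 fold change of -0.18 ± 0.0488 (edgeR adjusted p = 0.183). *PLXNA3* had 37.9 and 40.8 CPM in vector control and 32.8 and 31.4 CPM in OE, a log2 fold change of -0.29 ± 0.0981 (edgeR adjusted p = 0.227). For both, the unadjusted p was above 0.05 in each of the 4 fits without 1 library, with log2 fold changes of -0.19 to -0.17 and -0.35 to -0.24. *LAGE3*, opposite *PLXNA3*, had 222 to 468 counts. *PLXNB2*, the most abundant plexin per length apart from *PLXND1*, which was not ordered, had 323 and 337 CPM in vector control and 285 and 299.8 CPM in OE, a log2 fold change of -0.17 ± 0.0621 (edgeR adjusted p = 0.244).

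*NRP1*, the neuropilin bound by SEMA3A, depended on 1 library. It had 95.3 and 88.5 CPM in vector control and 358 and 75.7 CPM in OE. OE replicate 1 was the highest and OE replicate 2 the lowest of the 4 libraries. The log2 fold change was 1.24 ± 0.797 (edgeR adjusted p = 0.454) and -0.28 without OE replicate 1. In that library, 8768 of the 8981 counts were on ENST00000265371.4, which had 1144 to 1348 counts in the others. *NRP1* and *ROBO2* were the 2 guidance genes, of 57 that averaged 1 CPM or more, with replicates of a condition over 4-fold apart (3.51%, against 6.03% of such genes in the table).

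Of the remaining plexins, *PLXNB3* and *PLXND1* lay below control in both OE libraries and *PLXNA4* and *PLXNC1* above. Their log2 fold changes were -0.35, -0.32, 0.24 and 0.53, with unadjusted p from 0.0982 to 0.263 in edgeR. *PLXNC1* ranged from 0.10 to 1.14 with a library left out, and *PLXNA4* was at 1.43 by the transcript of highest mean count. *PLXNB1* had a log2 fold change of -0.01 with overlapping conditions. It was 0.97 by the transcript of highest mean count, which had 0 counts in vector control replicate 1. Of the 11 plexins and neuropilins, 0 were higher at an unadjusted p under 0.05, which for so few genes is near the 10.1% of all tested genes, and their median log2 fold change was -0.18.

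The largest log2 fold change among the guidance genes was that of an ephrin. *EFNA3*, a GPI-anchored ligand of EPHA receptors, had 33.3 and 34.0 CPM in vector control and 5.70 and 2.49 CPM in OE. The control libraries were alike, and both OE libraries were far below them though 2.29-fold apart from each other. The mean went from 33.6 ± 0.510 to 4.09 ± 2.27 CPM (SD, n = 2 each), with a log2 fold change of -3.04 ± 0.466 (edgeR adjusted p = 0.0931) and -3.75 to -2.56 with a library left out. All counts were on ENST00000368408.3, 1 of 5 listed transcripts.

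*EFNA3* lies within a cluster of 3 ephrin-A genes on the plus strand of chromosome 1. In hg19, *EFNA4* is at chr1:155036213-155042029, *EFNA3* at chr1:155051313-155060014 and *EFNA1* at chr1:155100352-155107375. *EFNA1*, the ligand best known for binding EPHA2, had 91.0 and 93.1 CPM in vector control and 42.6 and 60.3 CPM in OE. Both OE libraries were below control, and replicate 1 more so. The log2 fold change was -0.84 ± 0.200 (edgeR adjusted p = 0.150), and the unadjusted p was above 0.05 without vector control replicate 1 (log2 fold change -0.86) or 2 (-0.83). *EFNA4* had 22.9 and 28.5 CPM in vector control and 22.2 and 22.3 CPM in OE, with a log2 fold change of -0.21 ± 0.150 (edgeR adjusted p = 0.502). In this cluster, the middle gene thus differed most and the leftmost least. The readthrough from *EFNA4* into *EFNA3*, which shares exon bases with both, had no counts.

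The promoters of the 3 neighbours are shown so that they can be compared (RefSeq, GRCh38.p14, plus strand, 250 bases before to 50 after the start). They are at chr1:155063490-155063789, chr1:155078587-155078886 and chr1:155127626-155127925. Capitals again mark GC boxes and CCAAT boxes on either strand.
EFNA4: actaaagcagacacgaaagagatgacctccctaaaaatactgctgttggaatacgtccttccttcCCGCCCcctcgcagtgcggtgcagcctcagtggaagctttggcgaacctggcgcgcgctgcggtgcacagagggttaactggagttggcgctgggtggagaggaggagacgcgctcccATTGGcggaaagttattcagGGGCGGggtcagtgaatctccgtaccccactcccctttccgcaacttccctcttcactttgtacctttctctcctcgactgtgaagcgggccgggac
EFNA3: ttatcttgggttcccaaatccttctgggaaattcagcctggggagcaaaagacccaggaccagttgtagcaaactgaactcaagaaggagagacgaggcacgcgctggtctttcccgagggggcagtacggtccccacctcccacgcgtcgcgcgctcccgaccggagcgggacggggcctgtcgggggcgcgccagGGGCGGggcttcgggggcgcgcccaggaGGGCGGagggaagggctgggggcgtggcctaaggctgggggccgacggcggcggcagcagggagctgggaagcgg
EFNA1: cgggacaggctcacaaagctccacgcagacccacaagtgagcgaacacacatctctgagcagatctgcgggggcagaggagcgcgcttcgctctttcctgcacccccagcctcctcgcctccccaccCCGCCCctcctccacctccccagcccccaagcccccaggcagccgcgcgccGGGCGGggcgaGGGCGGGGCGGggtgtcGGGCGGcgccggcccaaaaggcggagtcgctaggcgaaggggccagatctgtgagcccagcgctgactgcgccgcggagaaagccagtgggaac
The *EFNA4* window had a GC content of 58.3%, 2 GC boxes and 1 CCAAT box. The *EFNA3* window had 69.3% and 2 GC boxes, and the *EFNA1* window 71.7% and 5 GC boxes. The windows of *EFNA3* and *EFNA1* held no CCAAT box.

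RefSeq promoters of 300 bases were found for 59 of the 69 guidance symbols, 50 of them tested. A GC box (GGGCGG, both strands) was in 56 of the 76 promoters of tested guidance genes (73.7%) and in 45.0% of all 35116 promoters. A CCAAT box (CCAAT) was in 32.9% and 34.6%, a TATA box (TATAAA) in 1.32% and 11.5%, and an E-box (CACGTG) in 3.95% and 7.26%. An AP-1 site (TGANTCA) was in 1.32% and 7.71%, and the interferon-stimulated response element in 3.95% and 3.57%. The median GC content was 66.8% in guidance promoters and 58.7% in all. The guidance promoters are those of tested genes, while the background holds promoters of genes tested or not, so the sets were not chosen alike. These are counts of letters and name no bound factor.

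Of 5 tested ephrin-A genes, 2 were lower and 1 was higher at an unadjusted p under 0.05, against 10.7% and 10.1% of all tested genes, and of 3 ephrin-B genes, none was. With so few genes, 1 higher and none called are near that share. *EFNA2* was higher in OE, with 2.40 and 3.19 CPM in vector control and 5.38 and 5.15 CPM in OE, without overlap, and a log2 fold change of 0.91 ± 0.217 (edgeR adjusted p = 0.150). Its unadjusted p was above 0.05 without vector control replicate 1 (log2 fold change 0.72), OE replicate 1 (0.88) or OE replicate 2 (0.94). *EFNA5* had 12.5 and 13.1 CPM in vector control and 19.0 and 14.8 CPM in OE, with a log2 fold change of 0.40 ± 0.173 (edgeR adjusted p = 0.303). Among the transmembrane ephrin-B ligands, *EFNB3* was more abundant per length than *EFNB1*, while *EFNB2* had no transcript length and was not ordered. *EFNB3* had 105 and 109 CPM in vector control and 92.9 and 97.6 CPM in OE and a log2 fold change of -0.17 ± 0.0803 (edgeR adjusted p = 0.334). *EFNB1* and *EFNB2* had log2 fold changes of 0.18 and 0.11 (edgeR adjusted p = 0.441 and 0.673), and *EFNB2* one of -0.02 without vector control replicate 2. The summed CPM of the ephrin-A genes was 162 and 172 in vector control and 94.8 and 105.1 in OE, and that of the ephrin-B genes overlapped, at 194 and 187 against 185 and 187.

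Of the EPH receptors, the tyrosine kinases that bind ephrins, *EPHB1* was lower in OE. It had 25.3 and 26.3 CPM in vector control and 15.2 and 13.5 CPM in OE, without overlap, and a log2 fold change of -0.84 ± 0.121 (edgeR adjusted p = 0.0858). *EPHB2*, *EPHB3* and *EPHB4* also lay below control in both OE libraries, with log2 fold changes of -0.19, -0.36 and -0.31 and unadjusted p of 0.184, 0.0617 and 0.0542 in edgeR. *EPHB4*, a receptor of ephrin B2, had the highest mean per length of the class, but *EPHB2* was above it in every library except vector control replicate 2, so they could not be ordered. *EPHB4* had 91.2 and 106 CPM in vector control and 81.3 and 78.0 CPM in OE. *SLC12A9* on the opposite strand of *EPHB4* had 844 to 1320 counts.

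*EPHA8* was higher in OE at low counts, with 7 and 14 counts in vector control and 65 and 56 counts in OE. The OE libraries were well above control, and the log2 fold change was 2.32 ± 0.445 (edgeR adjusted p = 0.116), from 1.91 to 2.89 with a library left out. *EPHA2*, which is bound by ephrin A1, had the highest level per length of the guidance receptors that were ordered, with 460.3 and 408 CPM in vector control and 304 and 427 CPM in OE. OE replicate 1 was the lowest library and OE replicate 2 lay between the controls, so the conditions overlapped, with a log2 fold change of -0.25 ± 0.195 (edgeR adjusted p = 0.536). *EPHA1*, *EPHA6* and *EPHA10* had log2 fold changes of -0.43, 0.54 and 0.70 (edgeR adjusted p from 0.261 to 0.458). Most counts of *EPHA1* were on ENST00000458129.1, of 651 bases, with 131 and 150 in vector control and 117 and 102 in OE. ENST00000275815.3, of 3310 bases, went the other way, with 0 and 0 counts in vector control and 16 and 12 in OE. *ZYX*, on the strand opposite *EPHA1*, had 14785 to 26797 counts against 114 to 157 for *EPHA1*, and was itself lower in both OE libraries. The value of *EPHA6* was 0.16 to 0.83 with a library left out and -0.69 by the transcript of highest mean count, since 51 of the 55 counts of OE replicate 2 were on ENST00000470610.2, which had 0 in the other libraries. *EPHA4* had 3 and 5 counts in vector control and 9 and 0 in OE. Of the 9 EPHA genes, 5 were tested, with a median log2 fold change of 0.54, the value of *EPHA6* itself, and of the 5 EPHB genes, 4 were tested, with a median of -0.33.

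For some genes, the transcript that held the counts varied between libraries. For 12 of 55 guidance genes with over 1 listed transcript and counts in every library, the leading transcript was not the same in all 4 libraries (21.8%, against 24.5% of 14595 such genes in the table): *EPHA6*, *NTN5*, *PLXNA4*, *PLXNB1*, *ROBO3*, *SEMA3B*, *SEMA4B*, *SEMA4D*, *SEMA6B*, *SEMA6C*, *SEMA6D* and *SLIT2*. In *SEMA6C*, 161 and 181 counts of the replicate 1 libraries were on ENST00000341697.3, and 477 and 354 counts of the replicate 2 libraries on ENST00000368914.3. In *SEMA4B*, vector control replicate 2 had 2984 of its 3064 counts on ENST00000411539.2, which had 0 to 23 counts elsewhere. Its gene sum was 49.3 and 130.4 CPM in vector control and 36.3 and 35.4 CPM in OE, and its log2 fold change of -1.33 ± 0.518 (edgeR adjusted p = 0.272) was -0.47 without that library. In *SEMA4D*, vector control replicate 1 stood apart, with 536 counts against 207 to 258 in the others, 392 of them on ENST00000450295.1, and the log2 fold change was -0.77 with it and 0.08 without it. Which tool counted the reads is not given in the sources used here.

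**Figure D3:**
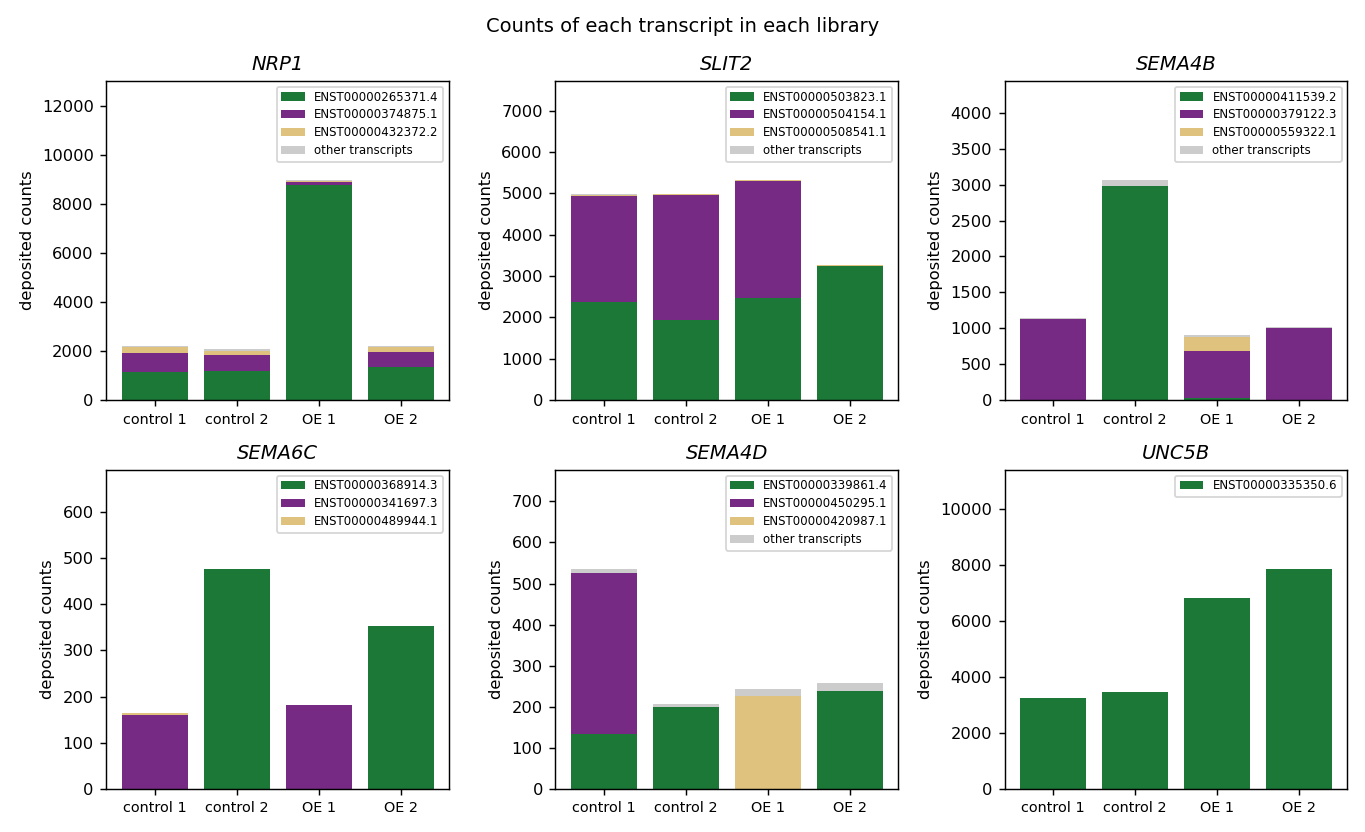
Deposited counts of each transcript (stacked bars) in each of the 4 libraries for *NRP1*, *SLIT2*, *SEMA4B*, *SEMA6C*, *SEMA4D* and *UNC5B*, each panel on its own count axis from 0. In *NRP1* the extra counts of OE replicate 1 are on 1 transcript, in *SLIT2* a transcript is at 0 in OE replicate 2, and *UNC5B* has a single transcript throughout.

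Levels of different genes were compared per length, as counts per kb of each transcript, scaled to a common sum within a library. Over 59 guidance genes with at least 95% of their counts on transcripts of known length, the highest mean levels over all 4 libraries were those of *EPHA2* (209), *SEMA3C* (204), *PLXNB2* (121), *EFNA1* (95.6) and *PLXNA1* (85.1). *EPHA2*, at 166 to 237 per library, and *SEMA3C*, at 178 to 223, could not be ordered beyond their spread. In vector control, *PLXNB2* (126 and 131) was close to *EFNA1* (121 and 119), and *EFNA1* was well above *PLXNA1* (90.7 and 85.2). In OE, *EFNA1* (58.0 and 83.9) was below *PLXNB2* (99.7 and 127) and overlapped with *PLXNA1* (80.9 and 83.5). *UNC5B* had levels of 41.3 and 42.4 in vector control and 81.9 and 84.0 in OE, so that its OE level was close to that of *PLXNA1*. *EFNA3* had levels of 37.1 and 36.9 in vector control, close to those of *EFNA4* (37.0 and 44.8), and 6.46 and 2.89 in OE, well below *EFNA4* (36.4 and 37.6). *SLIT2* (46.6 to 75.5) was above *SLIT3* (20.9 to 35.6) in every library.

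**Figure D4:**
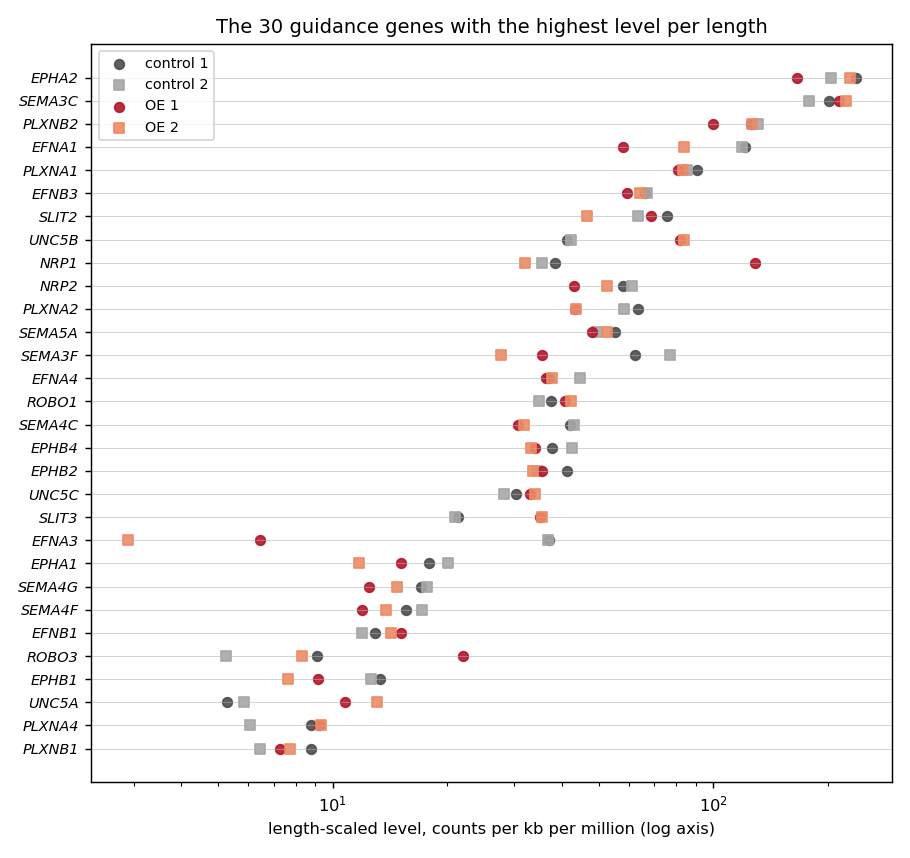
Length-scaled level (counts per kb, scaled to a common library sum, log axis) of the 30 guidance genes with the highest mean, with 1 point per library, in grey for vector control and red for OE. *EPHA2* and *SEMA3C* stand at the top, *UNC5B* and *SLIT3* have their OE points to the right, and *EFNA3* has them far to the left.

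The proteins that act behind these receptors were read from a list of 51 effectors, of which 50 were tested (*RHOD* had no counts). At an unadjusted p under 0.05, 6 were higher in OE and 9 lower, against 10.1% and 10.7% of all tested genes, so the higher count was near the background. The 9 lower became 5 without vector control replicate 1, without vector control replicate 2 or with the replicate number as a block. The median log2 fold change was -0.03. The 8 with the smallest p are given here. *LIMK2*, a kinase that inactivates cofilin, had 60.0 and 60.9 CPM in vector control and 36.0 and 34.2 CPM in OE, a log2 fold change of -0.79 ± 0.0893 (edgeR adjusted p = 0.0707). *DPYSL5* and *CRMP1*, collapsin response mediator proteins that act in semaphorin signalling, were both higher without overlap. Their family did not move as 1 group: *DPYSL4* had a log2 fold change of 0.54 ± 0.107, *DPYSL2* of -0.19 ± 0.127 and *DPYSL3* of -0.43 ± 0.0992 (edgeR adjusted p = 0.121, 0.471 and 0.145). *DPYSL3* lay below control in both OE libraries, with 429 and 428 CPM in vector control and 344 and 292 CPM in OE. These 3 were named after their values were seen. *DPYSL5* had 36.3 and 41.5 CPM in vector control and 68.9 and 73.6 CPM in OE, a log2 fold change of 0.87 ± 0.116 (edgeR adjusted p = 0.0791). *CRMP1* had 43.5 and 42.0 CPM in vector control and 66.8 and 67.2 CPM in OE, a log2 fold change of 0.65 ± 0.0859 (edgeR adjusted p = 0.0792).

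*MYO10*, the motor of filopodia, and *ADAM10*, a protease that cuts ephrins, were lower without overlap. *MYO10* had 98.0 and 94.4 CPM in vector control and 63.6 and 58.6 CPM in OE, a log2 fold change of -0.65 ± 0.0914 (edgeR adjusted p = 0.0828), and *ADAM10* a log2 fold change of -0.50 ± 0.0801 (edgeR adjusted p = 0.0970). *SRGAP3*, a GTPase-activating protein of the SLIT and ROBO pathway, was higher, with 2.23 and 2.17 CPM in vector control and 5.30 and 4.60 CPM in OE, a log2 fold change of 1.17 ± 0.184 (edgeR adjusted p = 0.0945). The GTPase *RHOA* and the exchange factor *TRIO*, which acts downstream of netrin receptors, had log2 fold changes of -0.29 ± 0.0508 and 0.30 ± 0.0569 (edgeR adjusted p = 0.105 and 0.115).

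A further list held 17 other guidance genes, mainly adhesion molecules of growing axons. Of 14 tested, 6 were higher and 0 lower at an unadjusted p under 0.05, against 10.1% and 10.7% of all tested genes, with a median log2 fold change of 0.66. *CNTN1*, a contactin, had 2.49 and 1.87 CPM in vector control and 12.3 and 16.8 CPM in OE and a log2 fold change of 2.73 ± 0.271 (edgeR adjusted p = 0.0631). *L1CAM*, which can form part of semaphorin receptors, had 27.6 and 30.4 CPM in vector control and 59.0 and 55.9 CPM in OE and a log2 fold change of 0.98 ± 0.104 (edgeR adjusted p = 0.0660). Neither overlapped between conditions. *NRCAM* and *CNTN2*, of the same families, had log2 fold changes of 0.56 ± 0.0884 and 2.04 ± 0.425 (edgeR adjusted p = 0.0948 and 0.128). *CHL1* was at 0 in all libraries.

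Markers of cell state differed between the same libraries. Of 16 adrenergic neuroblastoma markers, 15 were tested and 10 were higher and 0 lower at an unadjusted p under 0.05, against 10.1% and 10.7% of all tested genes here and for the lists that follow, with a median log2 fold change of 0.92. Their summed level was 880 and 878 CPM in vector control and 1382 and 1443 CPM in OE. *TH*, the enzyme that starts catecholamine synthesis, was at 0 in all 4 libraries. Of 16 mesenchymal markers, 1 was higher and 6 lower, with a median of -0.13. Their summed levels overlapped, at 4665 and 5177 CPM in vector control and 5321 and 3774 CPM in OE. That overlap rested on *VIM* in OE replicate 1. *VIM* had 348 and 350 CPM in vector control and 1254 and 376 CPM in OE. Of 10 proliferation genes, 5 were lower and 0 higher, with a median of -0.74 and summed levels of 492 and 505 CPM in vector control and 294 and 325 CPM in OE. The part of these markers in the differences of the guidance genes was not tested. Of 10 genes of other tissues, 9 were found in the table, *AQP4*, *CD3E*, *ALB*, *INS*, *MYH6*, *CDH5* and *KRT5* were at 0, and none had more than 18 counts in a library.

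**Figure D5:**
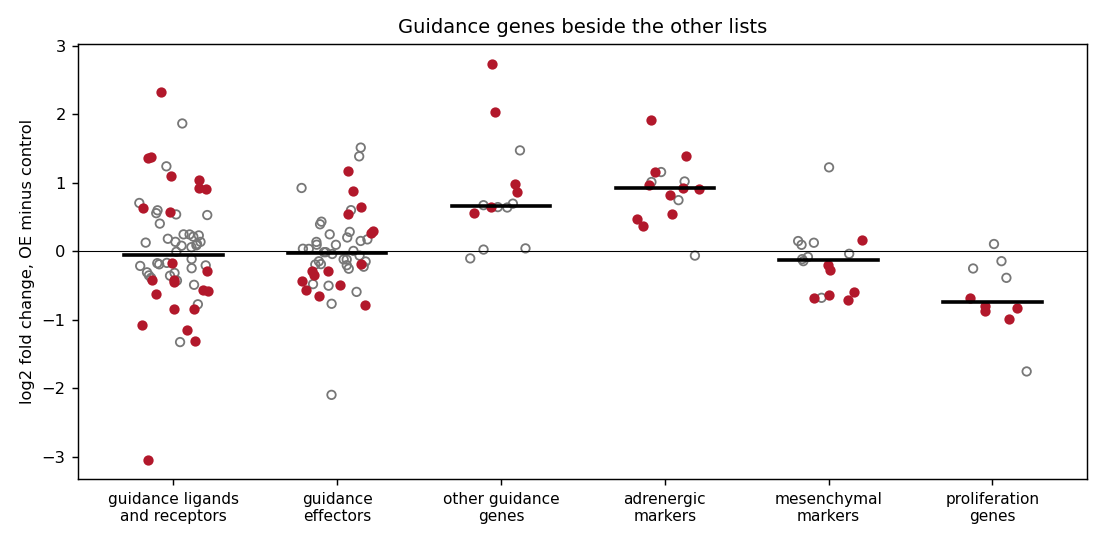
Log2 fold change, OE minus vector control, of each tested gene in the guidance ligands and receptors and in 5 other lists. Filled points had an unadjusted p under 0.05, open points did not, and the black bar is the median, which is near 0 for the ligands and receptors and their effectors and lies higher for the other guidance genes (0.66) and the adrenergic markers (0.92), and lower for the mesenchymal markers (-0.13) and the proliferation genes (-0.74).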

How the data were processed

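RNA-seq libraries of SK-N-SH cells (2 vector control, 2 *RP5-998N21.4* OE) were grouped by their sample labels. The authors aligned the reads to hg19 (Bowtie2) and deposited counts for each transcript, which are whole numbers and not normalized. The submitters' processing notes also name Picard 2.21.6, StringTie 2.1.6, Bowtie2 2.0.4 and DESeq2. The counting tool, annotation release and use of strand are not given in the sources used here, and the library kit does not mark strand, so reads of a gene and of an overlapping or antisense gene cannot be told apart. Exons of 31 guidance genes overlap those of another gene.

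Counts of 196520 transcripts were summed per gene. Genes kept by filterByExpr (20528) were normalized by TMM (factors 0.976 to 1.02) and compared by the quasi-likelihood test of edgeR (4.0.16, R 4.3.3), two-sided, with Benjamini-Hochberg adjustment over all genes and no covariates (common dispersion 0.122). The methods of the study name DESeq2, which was run as an alternative (1.42.0), as was limma-voom (limma 3.58.1). Library totals were 23785164 to 28307591 counts. The main edgeR fit alone was tested on simulated gene counts, with 200 genes changed by known folds.

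The members, gene lists and naming rule were chosen with earlier results of these data known. Named were genes with an unadjusted p under 0.05, the leading gene per length of each of 9 classes, genes of at least 1 CPM whose replicates were over 4-fold apart, genes at 0, and at most 8 effectors and 4 other guidance genes. The rest are given as examples of their class. Positions and transcript lengths came from the lifted GENCODE annotation for hg19, in which all 70 genes were found, and 95.7% of the counts of the guidance genes were on transcripts with a length. Promoters are RefSeq sequences. Alternatives were RLE and upper-quartile normalization, DESeq2, limma-voom, no filter, a replicate block, a minimum mean of 10 counts, each library left out, no mitochondrial genes, the transcript of highest mean count and an adjusted p under 0.05.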

Additional observations from a re-analysis of the deposited data

How the results depend on the processing

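No guidance gene and no other tested gene reached the thresholds of the study in the main edgeR fit. Values for genes under about 1 CPM rest on few counts. At those thresholds DESeq2 called 14 guidance genes and edgeR at an adjusted p under 0.05 called 1, while the other normalizations, filters, limma-voom, the replicate block and each left-out library called 0. With a library left out, 6 to 9 guidance genes were higher and 9 to 12 lower at an unadjusted p under 0.05, against 9 and 14 with all libraries. Of all tested genes, 6.09% to 9.22% were higher and 7.54% to 9.82% lower in those fits. The lowest count of lower genes, 9, came without vector control replicate 2 or without OE replicate 1. Effectors in the same fits were higher in 5 to 8 genes and lower in 5 to 12, against 6 and 9, the 5 without vector control replicate 1 or 2. The adjusted p of *UNC5B* was 5.38e-55 in DESeq2, 0.0289 in limma-voom, 0.0517 with no filter and 0.0565 by the transcript of highest mean count. Among the named genes, 2 log2 fold changes changed sign, *NRP1*, which ranged from -0.28 without OE replicate 1 to 1.96 without OE replicate 2, and *SLIT2*, at 0.19 with the transcript of highest mean count. The cause was not tested. Another 25 values, 24 of them in DESeq2, passed the thresholds of the study, and 558 kept their direction and side of them.

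Labels give both conditions the replicate numbers 1 and 2, but nothing says that a number pairs the libraries, and the correlation of the deviations of same-numbered libraries was -0.0216. With the replicate block, effectors lower at an unadjusted p under 0.05 numbered 5 in place of 9, guidance genes 8 higher and 11 lower in place of 9 and 14, against 7.22% and 7.69% of all tested genes (13.3% and 18.3% of the guidance genes), and 0 guidance genes were called at the thresholds of the study. The adjusted p of *UNC5B* was 0.296 in that fit.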
